A study of Mus musculus with 21 samples.

Results

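The miR-181 family was followed in mouse kidney over 28 days after folic acid through 6 rows of a table of 1125 mature miRNAs: miR-181a-5p, miR-181a-3p, miR-181b-5p, miR-181c-5p, miR-181c-3p and miR-181d-5p. The table holds 8 rows named miR-181, and the 6 were picked by name for higher levels late in the course. Their levels by day are therefore given as a description, without p-values, and tests are kept for ratios between the rows and for a family row that was not picked. Male BALB/c mice, 12 weeks of age, had been injected with folic acid at 250 mg/kg in sodium bicarbonate, a treatment that injures the renal tubules, and whole kidney was collected at the start (day 0), on each of days 1 to 3, and on days 7, 14 and 28. Each day has 3 small RNA libraries, 21 in all. Separate mice for the libraries of 1 day are not stated in the labels, and errors and p-values then measure only how far these libraries differ, which may be technical. They date day 0 from the injection without saying whether those kidneys had been exposed to folic acid, and no later day has a group without it, so folic acid, vehicle, injection and time in the experiment cannot be told apart. All comparisons with day 0 share the same 3 day 0 libraries.

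A miRNA is a short RNA that directs Argonaute proteins to transcripts by base pairing, mostly through its seed, bases 2 to 8 from the 5′ end. Each hairpin precursor yields a 5p and a 3p arm, and the arm that is usually retained is called the guide and the other the passenger. The miR-181 guides are the 5p arms. The family is known from lymphocyte development, where miR-181a tunes the sensitivity of T cell receptor signalling, and from endothelium, where miR-181b dampens NF-kB signalling.

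The 4 guide arms are shown first because they differ from each other by very few bases, which bears on how their reads can be told apart. Sequences are from RefSeq on GRCm38.p6, written 5′ to 3′ with the seed in capitals.
miR-181a-5p: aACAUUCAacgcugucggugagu
miR-181c-5p: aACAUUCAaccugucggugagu
miR-181b-5p: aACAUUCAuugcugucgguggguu
miR-181d-5p: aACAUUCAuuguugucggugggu
All 4 carry the seed ACAUUCA, and no other miRNA listed by RefSeq has it. Counted from 1 at the 5′ end, miR-181c-5p is miR-181a-5p without the G at position 11. Between miR-181b-5p and miR-181d-5p the only substitution is C12U, besides the last base that miR-181b-5p has in addition. From miR-181a-5p to miR-181b-5p the substitutions are A9U, C10U and A21G.

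The passenger arms carry other seeds and are shown to identify which rows could be matched.
miR-181c-3p: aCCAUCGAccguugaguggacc
miR-181a-1-3p: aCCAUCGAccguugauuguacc
miR-181a-2-3p: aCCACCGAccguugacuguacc
The seed CCAUCGA is shared by miR-181c-3p and miR-181a-1-3p, whose other bases differ by U16G and U19G. From miR-181a-1-3p to miR-181a-2-3p the substitutions are U5C and U16C, the first of them within the seed. Of the 6 rows, 5 matched an entry of the sequence table. The row miR-181a-3p did not, and whether it counts the 3p arm of one precursor or of both is not stated.

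The hairpins lie in pairs at 3 places, given here on GRCm38 from GENCODE M21, while the deposited counts were made with mm9. Mir181a-1 (chr1:137966455-137966541, plus strand) and Mir181b-1 (chr1:137966639-137966718, plus strand) are 97 bases apart and overlap an exon of the lincRNA A430106G13Rik on the same strand. Mir181a-2 (chr2:38852735-38852810, plus strand) and Mir181b-2 (chr2:38853830-38853918, plus strand) are 1019 bases apart in an intron of Nr6a1, a nuclear receptor gene on the opposite strand. Mir181c (chr8:84178873-84178961, minus strand) and Mir181d (chr8:84178716-84178787, minus strand) are 85 bases apart in an intron of Nanos3, on its strand. The mature miR-181a-5p is identical from both of its precursors, as is miR-181b-5p, so their reads cannot be assigned to chromosome 1 or 2. miR-181c-5p, miR-181c-3p and miR-181d-5p each come from the single pair on chromosome 8.

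Depth was 2875675 to 7110546 miRNA reads per library with a median of 4494595, and 3 reads correspond to 0.422 to 1.04 CPM (miRNA reads scaled to the same round total in every library). Levels below are TMM-scaled CPM, that is CPM after a further scaling that aligns the bulk of the miRNAs between libraries. The tissue was checked against markers. miR-192-5p, a kidney-enriched miRNA, averaged 120904 at day 0, and the neural miR-124-3p was at 0 in 19 of 21 libraries. Neural miRNAs were not absent as a set, as the 4 listed summed to 327 to 382 at day 0. Whole tissue was measured, so fewer cells of a type and less RNA per cell cannot be told apart.

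The family was abundant throughout, and miR-181a-5p made up nearly all of it. At day 0 the 6 rows held 2.09% ± 0.171 of all miRNA reads (SD, n = 3), and miR-181a-5p ranked 14 of the 1125 rows by its mean level. On day 3 the share was 1.58% ± 0.101 and on day 28 it was 2.75% ± 0.106. Among reads of the 4 guides, miR-181a-5p held 89.4% ± 0.440 at day 0, 86.4% ± 0.593 on day 3 and 88.8% ± 0.298 on day 28.

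The level of miR-181a-5p, the main guide, was lowest on days 2 and 3 and highest on day 28. At day 0 its libraries read 17638, 22959 and 18387. On days 1, 2 and 3 they read 15545, 12537 and 15130, then 12406, 13067 and 13410, then 12188, 12108 and 13132. All 9 early libraries lay below all of day 0. The later libraries read 16918, 16655 and 15200 (day 7), 25901, 22426 and 21583 (day 14) and 27767, 26648 and 26796 (day 28). Day 7 was thus still below every day 0 library, day 14 overlapped day 0, and day 28 stood above both. With libraries scaled by their totals only, day 7 (up to 17485) overlapped day 0 (17459 to 20406), day 14 (from 21316) stood above it, and days 14 and 28 overlapped each other. Relative to day 0 the mean was 0.635-fold on day 3 and 1.38-fold on day 28, so the late level was a modest gain over the start and a larger one over the trough.

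miR-181b-5p, whose hairpins neighbour those of miR-181a-5p, had the narrowest course of the 6, with 1.62-fold between its lowest and highest day mean. Its libraries read 1090, 1218 and 1071 at day 0 and 889, 664 and 836 on day 1. They read 816, 827 and 980 on day 2 and 955, 1051 and 1080 on day 3. Days 1 and 2 lay below day 0, and day 3 overlapped it. When libraries were scaled by their totals only, day 2 overlapped day 0 too, its log2 change going from -0.37 (SE 0.11) to -0.17, and that of day 3 turned from -0.13 (SE 0.11) to 0.06. Days 7, 14 and 28 gave 1096, 1011 and 938, then 1312, 1131 and 1174, then 1293, 1229 and 1337. Day 28 was above all of day 0, with a mean of 1287 ± 54.3 against 1127 ± 80.2 (SD, n = 3 each), 1.14-fold, but the days overlapped with library totals, at 1072 to 1229 against 1035 to 1083.

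miR-181c-5p followed the course of miR-181a-5p with a larger late gain. At day 0 it read 975, 1240 and 1040. On days 1, 2 and 3 the libraries read 832, 791 and 806, then 714, 821 and 812, then 695, 766 and 749. These 9 values were all lower than day 0 and close to each other. Day 7 read 1303, 1274 and 1148, overlapping day 0 (not with library totals, 1230 to 1337 against 965 to 1102), and day 14 read 1612, 1454 and 1941. By day 28 the libraries read 1910, 1848 and 1927, which is 1.75-fold the day 0 mean and 2.57-fold the day 3 mean, its lowest.

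miR-181d-5p had no early trough. It read 107, 128 and 109 at day 0 and 131, 108 and 107 on day 1, with the same mean of 115. On day 2 it read 147, 166 and 152 and on day 3 it read 200, 197 and 186. Each of days 2 and 3 stood above all of day 0 and above the day before. Later values were 377, 230 and 236 for day 7, then 322, 270 and 347 for day 14, then 243, 228 and 236 for day 28. The first library of day 7 stands apart from the other two. The highest mean was 313 ± 39.3 on day 14 (SD, n = 3), 2.72-fold day 0, and all day 28 libraries were below all of day 14.

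The passenger arms split the same way. miR-181a-3p, scarce beside its guide, read 99.5, 123 and 114 at day 0, while the 9 early libraries ranged from 68.7 to 96.5 with a median of 87.4. Days 7, 14 and 28 gave 132, 140 and 105, then 190, 150 and 152, then 161, 130 and 157. This arm was thus below day 0 on days 1 to 3, overlapped it on day 7 and was above it on days 14 and 28. With library totals, days 2 and 3 overlapped day 0 and day 7 stood above it.

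miR-181c-3p behaved like miR-181d-5p and unlike the guide of its own hairpin. It read 51.6, 62.9 and 54.7 at day 0. Day 1 gave 55.8, 50.03 and 37.4 and day 2 gave 52.6, 61.3 and 63.8, both overlapping day 0 (with library totals day 2 stood above it). Days 3 and 7 gave 90.7, 76.6 and 81.5, then 152, 138 and 116, and days 14 and 28 gave 134, 104 and 173, then 113, 91.8 and 116. From day 3 on, every library was above all of day 0. The means on days 7 and 14 were 135 ± 18.5 and 137 ± 34.6, and the day 28 mean of 107 ± 13.1 was 1.89-fold day 0 (SD, n = 3).

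**Figure D1:**
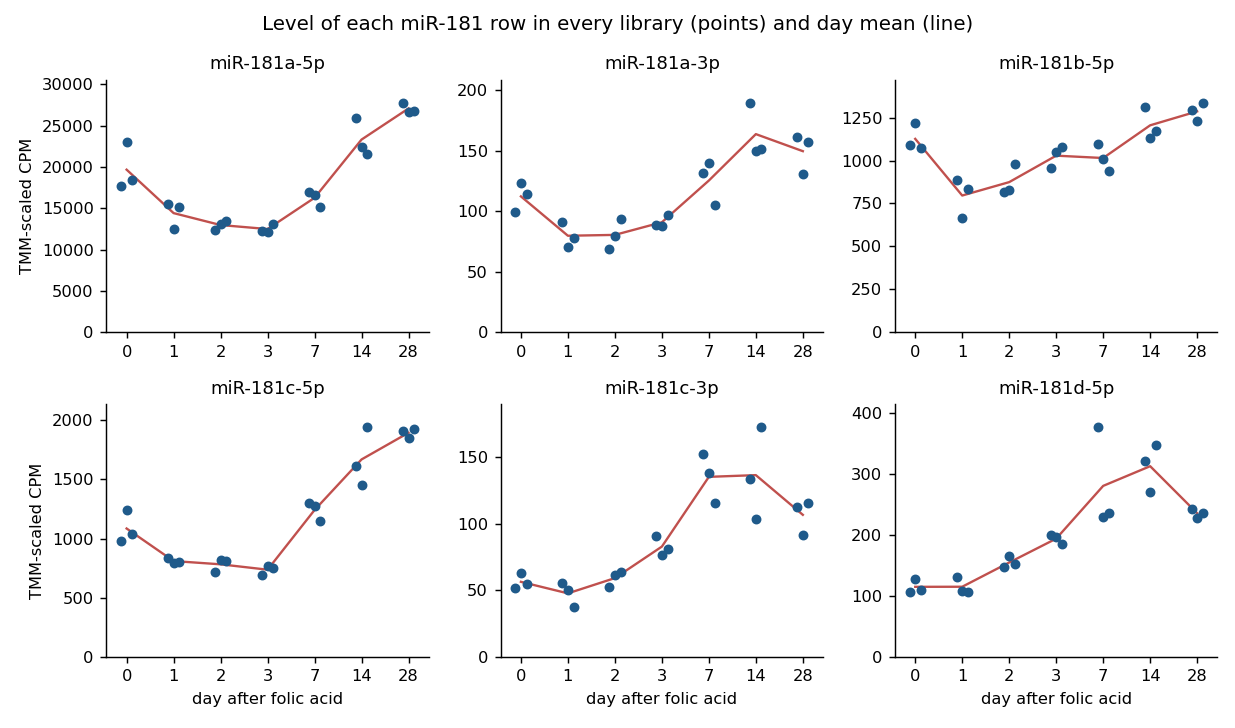
Level of each miR-181 row in TMM-scaled CPM (vertical axes from 0, a scale of its own in each panel) by day after folic acid; points are libraries and the line joins day means. miR-181a-5p, miR-181a-3p, miR-181b-5p and miR-181c-5p have means below day 0 on days 1 to 3, while all libraries of miR-181c-3p and miR-181d-5p are above day 0 on day 3, and the day 28 means of these 2 rows and of miR-181a-3p are below those of day 14.

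The order of levels changed during the course. At day 0, miR-181b-5p and miR-181c-5p overlapped at means of 1127 and 1085, and miR-181d-5p and miR-181a-3p overlapped at 115 and 112. On day 28, miR-181c-5p at 1895 ± 41.4 was above miR-181b-5p at 1287 ± 54.3, and miR-181d-5p at 236 ± 7.36 was above miR-181a-3p at 150 ± 16.8, neither pair overlapping (SD, n = 3). The ends of the order stayed in place on both days, with miR-181a-5p highest and miR-181c-3p lowest of the 6. These are levels in CPM of mature RNAs of nearly equal length, without correction for how well each sequence is ligated and amplified.

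Differences from day 0 in number of rows were read against all 431 miRNAs that had enough reads to be tested, which include all 6 rows. On day 1, 4 of 6 rows had all libraries below day 0, against 17.4% of tested miRNAs. On day 2 the count was 4 lower and 1 higher (26.0% and 30.9% of tested miRNAs), on day 3 it was 3 lower and 2 higher (25.1% and 31.6%), and on day 7 it was 1 lower and 2 higher (27.4% and 31.1%). On day 14, 4 rows were higher without overlap (27.4%), and on day 28 all 6 were (21.6%). Scaled by library totals, the counts were 2 lower and 2 higher on days 2 and 3, 4 higher and none lower on day 7, and 5 higher on days 14 and 28. The rows were picked for this course, so nothing is read from these counts.

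The mean of days 7, 14 and 28 was also set against the mean of days 1, 2 and 3, the contrast behind the name late-rising. The limma fit gave log2 differences, late minus early on the log2(CPM + 1) scale, of 1.02 (SE 0.06) for miR-181c-5p, 1.01 (0.10) for miR-181c-3p, 0.84 (0.09) for miR-181d-5p, 0.79 (0.08) for miR-181a-3p, 0.71 (0.06) for miR-181a-5p and 0.38 (0.06) for miR-181b-5p. Their median was 0.82, beside -0.00 over all tested miRNAs. All 6 passed an adjusted p of 0.05 in the higher direction, as did 19.3% of tested miRNAs, and 4 of 6 had every late library above every early one, against 2.78%. Both counts only describe how the rows were chosen. The libraries of miR-181a-5p and miR-181b-5p overlapped between the periods, while with library totals those of miR-181b-5p, miR-181c-3p and miR-181d-5p did. The 83 higher and 76 lower calls over all miRNAs became 49 and 118 when libraries were scaled by their totals only, which put the median of all miRNAs at -0.11, and 58 and 94 with upper-quartile scaling. The 6 differences stayed positive under both, the smallest being 0.25 for miR-181b-5p with library totals.

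**Figure D2:**
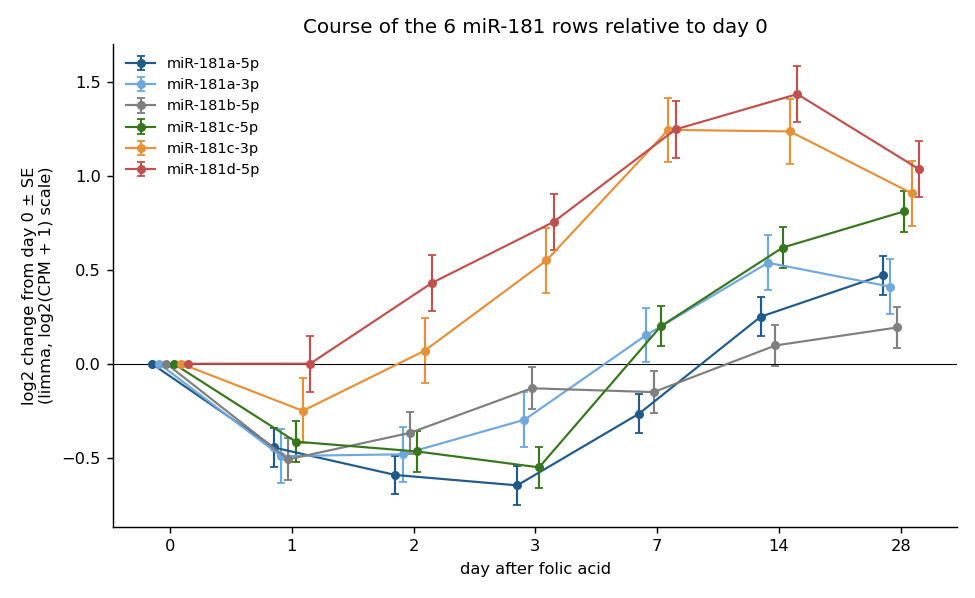
Log2 change from day 0 (vertical axis, limma, log2(CPM + 1) scale) by day after folic acid for the 6 rows, slightly offset sideways; bars are ± 1 SE and day 0 is the reference at 0. miR-181d-5p and miR-181c-3p run above the others from day 2 to day 28 and reach 1.43 and 1.24 on day 14, while miR-181a-5p is at -0.65 on day 3 and 0.47 on day 28.

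Late-rising therefore covers more than 1 shape of course. To put a number on likeness, the day means of each row on the log2 scale were centred on their own mean over the 7 days, and the root mean square difference between rows was taken. The closest pair was miR-181c-3p and miR-181d-5p at 0.12. miR-181a-5p and miR-181c-5p, which differ by a single missing base, were 0.17 apart. miR-181a-5p and miR-181a-3p, which share at least 1 hairpin, were 0.18 apart. The arms of the miR-181c hairpin were 0.41 apart and the neighbours miR-181c-5p and miR-181d-5p were 0.44 apart, while miR-181a-5p and miR-181d-5p were farthest at 0.51. Of the 3 rows from chromosome 8, miR-181c-3p and miR-181d-5p thus kept together and miR-181c-5p stood apart from both. The split was not sharp for every row. miR-181a-3p was 0.34 from miR-181c-3p and 0.36 from miR-181d-5p, while miR-181b-5p and miR-181c-5p were also 0.34 apart. The table does not record how reads with a missing or changed base were assigned. miR-181a-5p was 18.1-fold more abundant than miR-181c-5p at day 0, so the part of its reads in the miR-181c-5p row was not tested and cannot be read from this table.

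**Figure D3:**
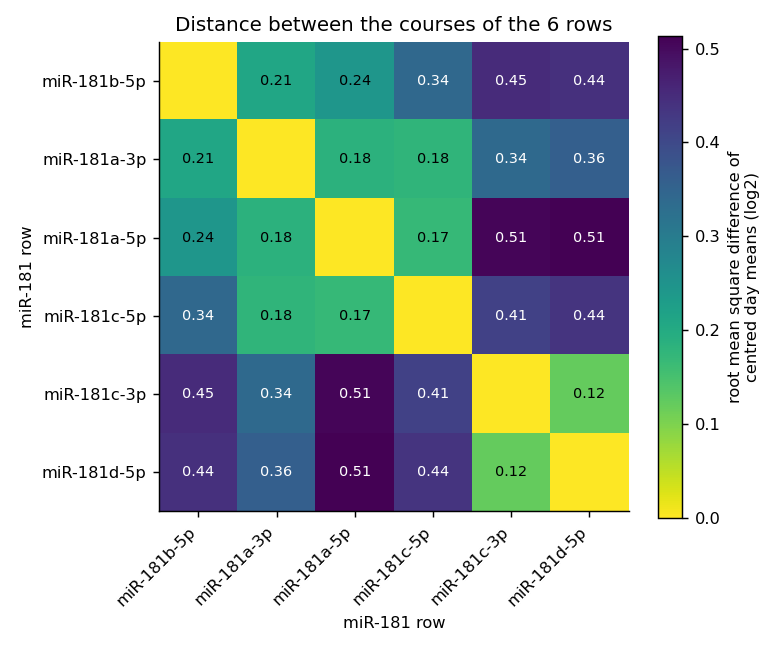
Root mean square difference (log2, colour and number) between the centred day means of each pair of miR-181 rows; both axes list the 6 rows. miR-181c-3p and miR-181d-5p form 1 close pair at 0.12, and the other 4 rows lie 0.17 to 0.34 from each other and 0.34 to 0.51 from that pair.

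Ratios between rows were tested because picking rows for a late rise does not fix how they differ from each other. The periods are those behind the name late-rising, however, and the rows were chosen with earlier results of these data known. A ratio within a library depends on its scaling only through the 1 CPM added to both levels before the log (0.5 or 4 CPM changed no call). Each ratio was compared between periods by an exact two-sided permutation test on log2 ratios, with p-values adjusted by Benjamini-Hochberg over 15 tests, 5 ratios in 3 comparisons. With 9 libraries in each period the smallest possible p is 4.11e-05, and with 9 against the 3 of day 0 it is 0.00455. Libraries of a day were treated as exchangeable with those of other days in the period. Libraries of 1 day were in fact alike. The log2 ratio of miR-181c-5p over miR-181d-5p averaged 2.81, 2.33 and 1.92 on days 1, 2 and 3, with SDs of 0.13, 0.08 and 0.11. The 9 libraries of a period are thus not independent, and the p-values are likely too small for a difference between periods.

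The guides from chromosomes 1 and 2 together lost ground to those from chromosome 8. Each side was mostly 1 row. At day 0 miR-181a-5p held 89.4% of guide reads and miR-181b-5p 5.16%, against 4.94% for miR-181c-5p and 0.525% for miR-181d-5p. How reads were assigned between miR-181a-5p and miR-181c-5p, which differ by a single missing base, is not recorded. The ratio of miR-181a-5p plus miR-181b-5p to miR-181c-5p plus miR-181d-5p read 17.3, 17.7 and 16.9 at day 0. It ranged from 13.7 to 17.5 over the early libraries and from 9.95 to 14.1 over the late ones. Late against early the log2 ratio differed by -0.30 (exact permutation p = 8.23e-05, adjusted p = 0.00123, n = 9 and 9), and this call held when any single library was left out (highest adjusted p = 0.0074). Late against day 0 it differed by -0.49 (exact permutation p = 0.00455, adjusted p = 0.0227, n = 9 and 3), with all 9 late libraries below day 0. The early difference from day 0 of -0.19 did not pass (exact permutation adjusted p = 0.0909, n = 9 and 3). Put as shares, miR-181c-5p and miR-181d-5p together held 5.46% ± 0.110 of guide reads at day 0 and 6.45% ± 0.330 on day 3. They held most on day 7, with 8.09% ± 0.383, and 6.99% ± 0.131 by day 28 (SD, n = 3). Leaving out any single day 0 library ended the call against day 0, each time with an adjusted p of 0.0682. Fewer day 0 libraries raise the smallest possible p, so this loss does not show a weaker difference, which stayed between -0.50 and -0.47. The early difference passed without day 1 replicate 3 (adjusted p = 0.0303).

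Within the chromosome 8 pair, miR-181c-5p lost ground to miR-181d-5p early. Their ratio read 9.10, 9.67 and 9.49 at day 0 and was down to 3.48, 3.90 and 4.03 on day 3. It read 3.46, 5.54 and 4.87 on day 7 and 7.86, 8.10 and 8.15 on day 28, still below day 0. Early against day 0 the log2 ratio differed by -0.87 (exact permutation p = 0.00455, adjusted p = 0.0227, n = 9 and 3), with every early library below day 0. Late against day 0 the difference of -0.70 did not pass after adjustment (exact permutation p = 0.0227, adjusted p = 0.0682, n = 9 and 3), and neither did late against early at 0.18 (exact permutation adjusted p = 0.425, n = 9 and 9). The early call ended when any single day 0 library was left out (adjusted p = 0.0682), where the smallest possible p is larger and the difference was -0.90 to -0.85. It also ended for day 2 replicate 3 (0.0503) and for day 3 replicate 2 (0.0548) or 3 (0.0682). Over all such runs the early difference stayed between -0.94 and -0.80. The late difference from day 0 passed without day 1 replicate 3 (adjusted p = 0.0487), day 7 replicate 1 (0.0364) or day 28 replicate 1 (0.0455), 2 or 3 (0.0227 each).

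miR-181a-5p and miR-181b-5p, which come from neighbouring hairpins, also changed relative to each other. Their ratio read 16.2, 18.8 and 17.2 at day 0, had its lowest values of 12.8, 11.5 and 12.2 on day 3, and reached 21.5, 21.7 and 20.04 on day 28. Late against early the log2 ratio differed by 0.33 (exact permutation p = 0.00761, adjusted p = 0.0285, n = 9 and 9), although the 2 ranges overlapped. Neither period differed from day 0 beyond the adjusted threshold, with 0.11 for late and -0.23 for early (exact permutation adjusted p = 0.425 and 0.293, n = 9 and 3). The late against early call was lost in 9 of 21 runs that left out a library: any of day 0 (adjusted p = 0.0571, through the adjustment over all tests), day 2 replicate 3 (0.0503), day 3 replicate 1 (0.0526), 2 (0.0548) or 3 (0.0682), and day 14 replicate 1 (0.0511) or 2 (0.0514).

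Guide to passenger ratios passed the test in none of the 6 comparisons with the periods as set. Only the miR-181c ratio is within a single hairpin, as reads of miR-181a-5p come from both of its precursors. For the miR-181c hairpin the guide to passenger ratio read 18.9, 19.7 and 19.0 at day 0, 7.66, 10.003 and 9.19 on day 3, 8.55, 9.21 and 9.92 on day 7 and 16.9, 20.1 and 16.6 on day 28. Its lowest day means were those of days 3 and 7, and the day 28 libraries lay on both sides of those of day 0. The early and late periods cut across this course. Its log2 difference was -0.60 early and -0.59 late against day 0 (exact permutation p = 0.0545 and 0.05, adjusted p = 0.102 for both, n = 9 and 3). With days 2 and 3 alone as early, or days 7 and 14 alone as late, these became -0.82 (exact permutation adjusted p = 0.0446) and -0.83 (exact permutation adjusted p = 0.0298). Without day 1 replicate 3 the early difference passed at an adjusted p of 0.0303, and without day 28 replicate 2 the late one passed at 0.0455. For miR-181a the ratio ranged from 119 to 204 over all libraries. Its means were likewise lowest for days 3 and 7, with values of 137 and 131, and the day 14 mean was 143. The day 28 mean of 182 was near the day 0 mean of 175, and the libraries of these days overlapped. The 3 differences between periods for miR-181a, of -0.08, -0.21 and -0.14, did not pass (exact permutation adjusted p from 0.280 to 0.483). With days 7 and 14 alone as late, the difference from day 0 became -0.35 and passed (exact permutation adjusted p = 0.0298).

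**Figure D4:**
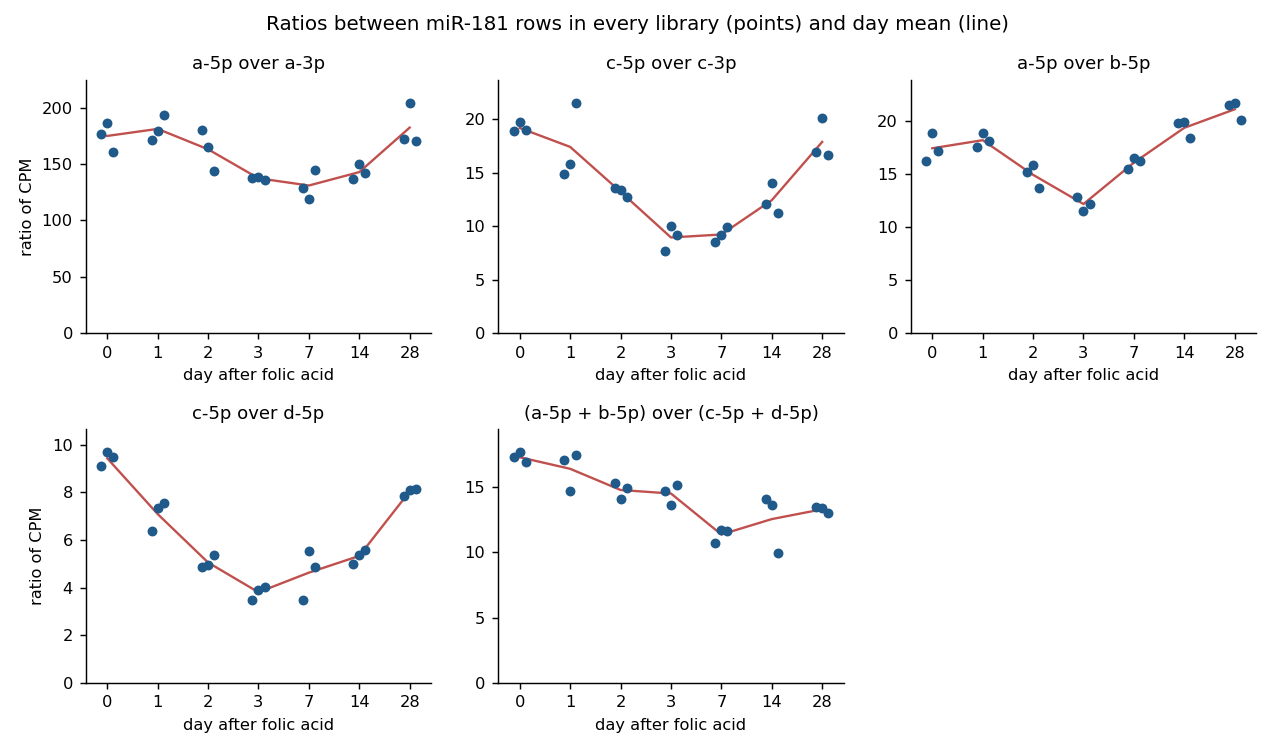
Ratio of CPM between miR-181 rows (vertical axes from 0) by day after folic acid; points are libraries and the line joins day means. The ratio of c-5p over d-5p goes from 9.42 at day 0 to 3.80 on day 3 and 8.04 on day 28, and the ratio of both a and b guides over both c and d guides stays lower late (11.4 to 13.3) than at day 0 (17.3).

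Of the family rows that were not picked, miR-181b-3p had 292 reads in all libraries and miR-181d-3p had 18. miR-181b-3p, the passenger arm of miR-181b, ranged from 1.12 to 3.61 early and from 2.36 to 5.31 late, with 1.45 to 3.44 at day 0, so the periods overlapped. Late against early it rose by 0.56 on the log2 scale (SE 0.17, limma adjusted p = 0.0143), where 19.3% of tested miRNAs were called higher. It passed under all 30 alternatives, with a highest adjusted p of 0.0461, but these reuse the same libraries. This row comes from the hairpins of miR-181b-5p, a picked row, so it is not independent of the choice. At a few CPM its libraries hold few reads each, and the pseudocount of 1 understates the change. miR-181d-3p was at 0 in 10 of 21 libraries and was not tested.

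miRNAs with the nearest courses were sought among 287 tested ones with a mean of at least 10 CPM outside the family. Nearest to the mean course of the 6 rows were miR-497-5p (0.15), miR-676-5p (0.15), miR-100-5p (0.18), miR-200c-3p (0.19) and miR-141-3p (0.19), in root mean square log2 difference over 7 day means, where the median over all candidates was 0.44. Nearest to single guides were miR-195-3p (0.15) and miR-99a-3p (0.17) for miR-181a-5p, miR-196b-5p (0.11) and miR-130a-3p (0.12) for miR-181b-5p, and miR-497-5p (0.23) and miR-100-5p (0.24) for miR-181c-5p. For miR-181d-5p they were miR-199b-5p (0.14) and miR-199a-5p (0.14), both expressed mainly by fibroblasts and other mesenchymal cells. The guides thus had different nearest neighbours.

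miRNAs that mark other cells were followed over the same days. Counts of these late against early are to be read beside the 19.3% of tested miRNAs that were higher and the 17.6% that were lower. The 6 mesenchymal miRNAs (the arms of miR-199a, miR-199b and miR-214, with identical rows for miR-199a-3p and miR-199b-3p) summed to 3766 to 4587 CPM at day 0, 3605 to 6739 early and 7955 to 16764 late, and 5 of 6 rose late against early with none lower. Their highest sum was in day 14 replicate 3, at 16764 against 11436 and 10054 in the other day 14 libraries. The same library had the highest day 14 values of miR-181c-5p, miR-181c-3p and miR-181d-5p and the lowest ratio of a and b to c and d guides, 9.95 against 14.1 and 13.7. It also had the lowest day 14 sums of kidney miRNAs (264218) and endothelial miRNAs (9521). Day 7 went otherwise. There, replicate 1 had the highest miR-181d-5p (377 against 230 and 236) and miR-181c-3p (152 against 138 and 116). Its mesenchymal sum (11028) lay between the others (11287 and 10922), and its kidney sum (321444) was the highest of day 7. The part of mesenchymal cells in the miR-181 levels was not tested.

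**Figure D5:**
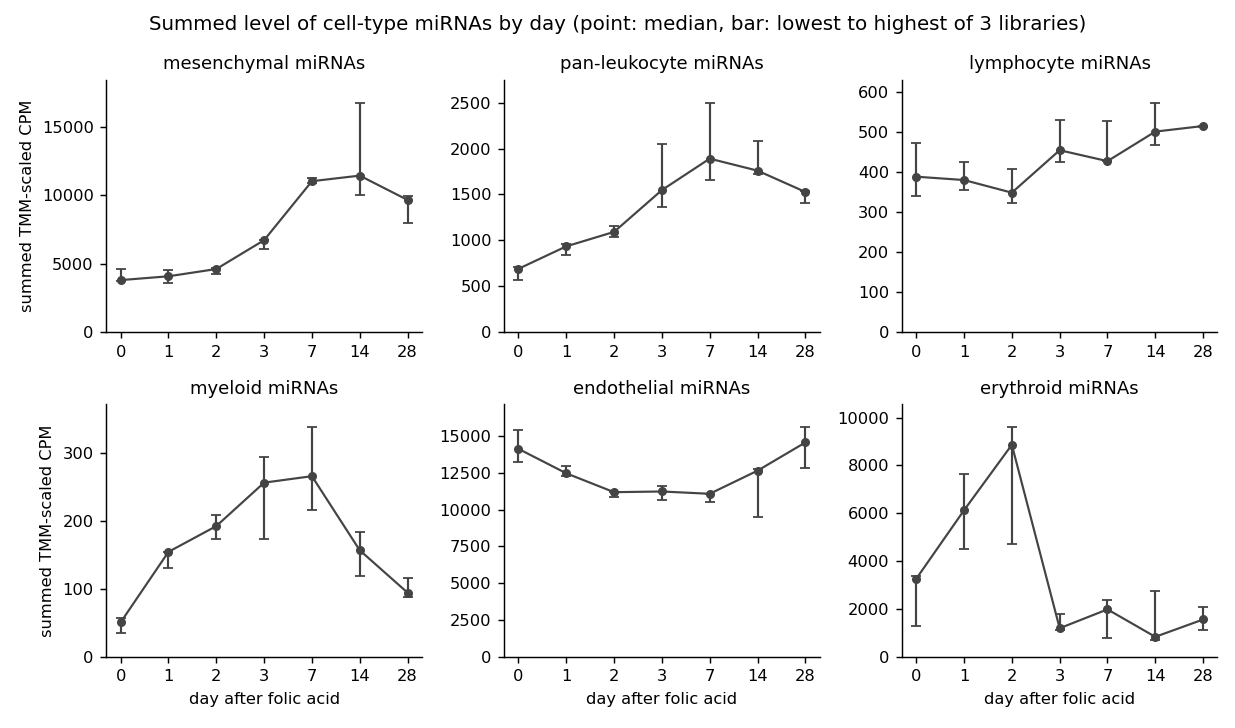
Summed TMM-scaled CPM of 6 sets of cell-type miRNAs (vertical axes from 0) by day after folic acid; points are medians and bars run from the lowest to the highest of 3 libraries. The mesenchymal sum is higher on days 7 to 28 (7955 to 16764) than on days 0 to 3 (3605 to 6739).

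The pan-leukocyte pair, miR-142-3p and miR-142-5p, summed to 564 to 710 at day 0, 842 to 2048 early and 1410 to 2499 late, and both rose late against early (1 of 2 when scaled by library totals or by the upper quartile). Of 4 lymphocyte miRNAs 2 rose, miR-150-5p by 0.43 (SE 0.11, limma adjusted p = 0.00465) and miR-342-3p by 0.69 (SE 0.10, limma adjusted p = 2.31e-05), and 1 fell, miR-155-5p, induced on immune activation, by 0.50 (SE 0.07, limma adjusted p = 7.15e-06). Their sums were 341 to 472 at day 0, 323 to 531 early and 427 to 574 late. Of 4 myeloid miRNAs 2 rose and 1 fell, with sums of 130 to 294 early and 88.2 to 338 late, beside 35.7 to 56.8 at day 0. The 4 erythroid miRNAs measured were all lower late than early. Their sums were 1294 to 3378 at day 0, 1140 to 9596 early and 694 to 2752 late. The high early sums were those of days 1 and 2 (means of 6099 and 7731), and day 3 (1140 to 1771) already lay within the late range. Of 8 miRNAs known from blood-cell development, the wider group to which miR-181a belongs, 3 rose and 5 fell (2 and 5 when scaled by library totals or by the upper quartile). The part of blood cells in the miR-181 levels was not tested.

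Kidney, vessel and neural miRNAs were the other sets. The 2 endothelial arms, miR-126-3p and miR-126-5p, passed in neither direction late against early. Their sums were 13246 to 15446 at day 0, 10650 to 12981 early and 9521 to 15598 late. Their median log2 difference of 0.06 turned to -0.07 with library totals and to -0.01 with upper-quartile scaling. Of 6 kidney miRNAs 4 rose late against early, as did 2 to 3 under other scalings. Their sums were 307062 to 369261 at day 0, 225512 to 317179 early and 264218 to 362038 late. The mean sum was 335625 at day 0, 263195 early and 314041 late, so the late mean did not exceed day 0. The 4 neural miRNAs summed to 327 to 382 at day 0, 291 to 377 early and 257 to 406 late. Of the 3 tested, miR-128-3p fell by 0.26 (SE 0.09, limma adjusted p = 0.0286), and the others did not pass.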

How the data were processed

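Total RNA from kidney was made into small RNA libraries with a TruSeq kit and read on an Illumina HiSeq, per the labels' protocols. Values deposited by the authors are CPM for 1125 mature miRNAs, with every library brought to the same total. CASAVA 1.8 and mm9 were used, per the submitters' processing notes; which aligner, counter or miRBase release was used is not given in the sources used here. The deposited CPM are whole multiples of the value of 1 read, so read counts were recovered for 100% of values within 0.05 of a read; they total 2875675 to 7110546 per library. The members and all lists were chosen with earlier results of these data known.

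After TMM scaling (edgeR 4.0.16), log2(CPM + 1) was fitted with limma 3.58.1 (limma-trend, R 4.3.3) over all 21 libraries with 1 mean per day, for 431 miRNAs kept by filterByExpr at a minimum count of 10, and p-values were adjusted by Benjamini-Hochberg over these with a threshold of 0.05. Late is the mean of days 7, 14 and 28 and early that of days 1, 2 and 3. Log2 ratios used CPM + 1 and exact permutation tests (numpy 2.4.6). Fit and permutation code were tested on simulated data. Intervals of 3 reads for a count of 0 cover counting error only. Other miRNAs were named where they were a row of the family, among the nearest courses (5 to the mean course, 2 to each guide) or in a fixed marker list; miR-451a and miR-194-5p have no row of that name here. Alternatives were pseudocounts of 0.5 and 4, no filter, RLE, library totals and upper-quartile scaling, the edgeR quasi-likelihood test and DESeq2 1.42.0 on recovered reads, a replicate block, medians, other days per period, and leaving out each library.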

Additional observations from a re-analysis of the deposited data

How the results depend on the processing

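The late against early calls of the 6 rows follow from how the rows were picked, so their persistence under all 30 alternatives is no sign of stability. Of 24 changes of the 6 rows from day 0 that passed, none changed sign and 8 were lost under at least 1 alternative. Library totals ended 6 of them: miR-181a-3p on days 1 (-0.41) and 2 (-0.29), miR-181c-5p on days 1 (-0.33) and 2 (-0.27 instead of -0.47), miR-181b-5p on day 2 (-0.17 instead of -0.37) and miR-181a-5p on day 7 (-0.16 instead of -0.27, also lost with no filter). Leaving out single libraries ended 7, among them miR-181d-5p on day 2 (without day 0 replicate 1 or 3 or day 2 replicate 2 or 3), miR-181c-3p on day 3 (day 0 replicate 1 or 3) and miR-181a-5p on day 7 (day 0 replicate 2, with -0.16, or 5 others). Another 5 passed only under some alternative, among them miR-181a-5p on day 14 with library totals (0.30 instead of 0.25). Replicate numbers did not pair the libraries: same-numbered libraries correlated over 0.1 in 15 of 63 pairs of days and 6 of 21 libraries correlated best with their own number. With a replicate block, 154 miRNAs were called late against early beside 159, and 54 on day 28 beside 56; the block changed no ratio call and no late against early call of the 6 rows. Scaling by library totals only gave 65 higher and 27 lower calls on day 1 (61 and 48 with TMM), 143 and 47 on day 2 (105 and 82) and 145 and 50 on day 3 (131 and 82), and 34 and 11 on day 28 (48 and 8). Upper-quartile scaling gave 102 and 124 on day 7 (128 and 98) and 40 and 29 on day 28. It put miR-181c-5p on day 7 at 0.01 instead of 0.20 and miR-181a-3p at -0.03 instead of 0.15, while library totals put them at 0.31 (then called) and 0.26. Without day 28 replicate 1, 37 miRNAs were called on day 28, and leaving out each library in turn gave 37 to 66.

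For the ratios, a difference of medians gave -0.14 for the miR-181c arms late against early (0.01 with means), -0.94 for miR-181c-5p over miR-181d-5p early against day 0 and -0.41 for a and b over c and d guides late against day 0, the last 2 no longer called (adjusted p = 0.0682 for both). With days 7 and 14 alone as late, the miR-181a arms reached -0.35, the miR-181c arms -0.83 and miR-181c-5p over miR-181d-5p -0.93 against day 0, all then called. The same choice gave -0.23 for the miR-181c arms and -0.060 for miR-181c-5p over miR-181d-5p late against early, opposite in sign to the values with all 3 days, and 0.24 for miR-181a-5p over miR-181b-5p, no longer called (adjusted p = 0.0941). With days 2 and 3 alone as early, the miR-181a arms late against early turned to 0.013; early against day 0 the miR-181c arms reached -0.82, miR-181a-5p over miR-181b-5p -0.37 and a and b over c and d guides -0.24, all then called, as was miR-181c-5p over miR-181d-5p late against day 0 at -0.70 through the adjustment. Leaving out each library in turn gave -0.077 to 0.107 for the miR-181c arms late against early, -0.67 to -0.51 late and -0.69 to -0.51 early against day 0; 0.29 to 0.37 for miR-181a-5p over miR-181b-5p late against early; -0.76 to -0.60 late and -0.94 to -0.80 early against day 0 for miR-181c-5p over miR-181d-5p; and -0.51 to -0.45 late and -0.21 to -0.17 early against day 0 for a and b over c and d guides. Losing 1 of 3 day 0 libraries raises the smallest p that tests against day 0 allow. Other causes of these shifts were not tested. Depth limits mainly miR-181b-3p and miR-181d-3p.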
